A study of Homo sapiens with 4 samples.

Results

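The 33 promoters described here belong to long noncoding RNA genes that host small nucleolar RNAs (snoRNAs). They were chosen by name from the 28775 rows of a table of promoter counts: every row whose symbol is SNHG followed by a number, which gave 29 rows, and 4 hosts with names of their own, GAS5, ZFAS1, EPB41L4A-AS1 and DANCR. The 33 genes lie on 16 chromosomes. No measured value entered this rule, although earlier results of these data were known when it was set. The assay was ATAC-seq, a readout of open chromatin by insertion of adapters with the transposase Tn5, and the cells were HEK293T, a human embryonic kidney line that carries the SV40 large T antigen. Of the 4 libraries, 2 came from wild-type (WT) cells and 2 from MORC2 knockout (KO) cells, and no treatment is named for either group. MORC2 is an ATPase that compacts DNA in vitro and has been reported to take part in silencing with the HUSH complex. The KO cells were bulk pools made by electroporation of Cas9 with a guide RNA, not clones, and each KO library came from a pool with its own guide, so guide and KO replicate cannot be told apart.

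Most human snoRNAs are cut out of the introns of longer transcripts, the host RNAs. Box C/D snoRNAs (SNORD) direct methylation of ribose on ribosomal RNA, box H/ACA snoRNAs (SNORA) direct the conversion of uridine to pseudouridine, and small Cajal body RNAs (SCARNA) do the same for the RNAs of the spliceosome. All genes described here are annotated as long noncoding RNA genes. Several of their spliced transcripts, that of GAS5 among them, are degraded by nonsense-mediated decay when ribosomes engage them. Many hosts start with a cytosine followed by a run of pyrimidines, the 5′ terminal oligopyrimidine (TOP) motif that is also found at the start of ribosomal protein genes.

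That start was visible in the reference sequences. RefSeq promoter windows on GRCh38.p14, from 250 bases before to 50 bases after the annotated start, were at hand for 29 of the 33 genes (SNHG6, SNHG9, SNHG15 and SNHG25 had none). A C with at least 3 pyrimidines after it stood at the annotated start of 9 of the 29 (31.0%), against 5.60% of the 19083 tested promoters with a sequence and 4.23% of other long noncoding RNA promoters. The letters TATAA, on the strand of the gene and lying 40 to 20 bases upstream of the start, occurred in 6 (20.7%), against 4.90% of all and 1.73% of other long noncoding RNA promoters. These are descriptions of the letters in a window and not of any factor bound there. The 5 promoters that held both are shown from 50 bases before to 30 bases after the start, 5′ to 3′ on the strand of the gene, with the TATAA and the pyrimidine run in capitals.
ZFAS1, chr20:49278592-49278671, plus strand: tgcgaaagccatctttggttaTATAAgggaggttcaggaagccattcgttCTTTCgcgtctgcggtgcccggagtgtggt
SNHG5, chr6:85678704-85678783, minus strand: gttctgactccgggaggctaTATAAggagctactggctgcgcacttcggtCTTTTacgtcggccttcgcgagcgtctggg
SNHG19, chr16:2155329-2155408, minus strand: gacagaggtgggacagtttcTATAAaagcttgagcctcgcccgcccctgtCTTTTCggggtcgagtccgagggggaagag
SNHG12, chr1:28581844-28581923, minus strand: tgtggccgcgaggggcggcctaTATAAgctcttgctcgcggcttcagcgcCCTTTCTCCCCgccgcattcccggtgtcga
SNHG7, chr9:136728155-136728234, minus strand: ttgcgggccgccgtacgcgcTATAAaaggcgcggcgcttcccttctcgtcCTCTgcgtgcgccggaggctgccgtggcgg
Both features together occurred in 35 of the 19083 promoters (0.183%) and in none of 3921 other long noncoding RNA promoters, so that 5 of those 35 belonged to the snoRNA hosts. Among 28 protein-coding snoRNA hosts with a sequence, 7 (25.0%) had the pyrimidine start and 2 (7.14%) had both. Hosts without either feature at the annotated start are shown for contrast over the same 80 bases. SNHG1 has a run of pyrimidines a few bases downstream of its annotated start, which the rule on the first bases did not count.
SNHG1, chr11:62855856-62855935, minus strand: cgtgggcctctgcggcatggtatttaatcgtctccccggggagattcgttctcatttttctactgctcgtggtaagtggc
DANCR, chr4:52712344-52712423, plus strand: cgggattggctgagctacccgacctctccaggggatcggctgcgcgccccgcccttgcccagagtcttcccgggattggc
EPB41L4A-AS1, chr5:112160476-112160555, plus strand: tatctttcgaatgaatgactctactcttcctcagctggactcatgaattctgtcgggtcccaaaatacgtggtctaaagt

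Other promoter letters did not set the hosts apart in the same way. The E-box CACGTG was present in 2 of 29 windows (6.90%), against 8.30% of all. CCGGAAG, the core of ETS factor sites, was present on either strand in 2 (6.90%), against 13.2%, and CCAAT on either strand in 9 (31.0%), against 36.0%. GC content had a median of 62.3%, from 37.7% at GAS5 to 81.3% at SNHG18, and the median over all promoters was 61.7%. The median window held 25 CpG dinucleotides, from 5 to 43, against 20 over all promoters and 7 over other long noncoding RNA promoters.

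Total promoter counts were 9435801 to 15152636 fragments per library, of which 20.6% to 35.1% lay in 37 mitochondrial rows, and KO replicate 2 had the lowest such share and the largest nuclear count. Counts were scaled by the TMM method and are given as CPM, counts relative to a fixed library size. The MORC2 promoter was at 37.0 CPM in KO replicate 1, 37.5 in KO replicate 2, 25.7 in WT replicate 1 and 29.6 in WT replicate 2. Its log2 fold change was 0.43 (adjusted p = 0.000279), so it was itself called as more accessible, a measure that does not report on the edit. Promoters of 6 genes that HEK293 cells express had WT means of 7.16 (PAX2) to 74.8 CPM (VIM), and those of 6 genes of blood, liver, pancreas and skin had 1.71 (PTPRC) to 5.07 CPM (INS). None of these 12 marker promoters differed between the groups at an adjusted p under 0.05.

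The first question was how open the host promoters were. In WT cells most of them were strong. The median WT level of the 32 host promoters that passed the filter on low counts was 35.9 CPM, with quartiles of 27.8 and 57.4, against 16.7 CPM over all 27647 tested promoters and 5.44 CPM over 5448 other long noncoding RNA promoters. These comparisons of levels assume windows of equal width: the study describes a promoter as 2 kb around the start of a gene, but how the deposited table was counted is not given in the sources used here. Of the 32, 30 lay above the median promoter, 15 above the percentile 75 and 8 above the percentile 90, and the median host stood at the percentile 71.5. By comparison, 32 protein-coding snoRNA hosts had a median of 52.9 CPM.

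At the top were SNHG31, SNHG10 and SNHG12. In this and the following sentences values of a group are in the order of replicates 1 and 2. SNHG31 held 87.9 and 90.5 CPM in KO cells and 89.6 and 81.4 CPM in WT cells. SNHG10, the host of SCARNA13, held 88.0 and 85.1 CPM in KO cells and 78.3 and 86.4 CPM in WT cells. SNHG12, the host of 4 snoRNAs, held 89.7 and 87.3 CPM in KO cells and 82.0 and 81.1 CPM in WT cells. GAS5 (80.2 ± 1.30 CPM in WT, SD, n = 2) and DANCR (78.4 ± 4.01) came next, and their WT values lay within the range spanned by those 3 promoters or just below it, so that the order among the top 5 is not separated by the spread between replicates. The next hosts, SNHG3 (62.4 ± 5.11), ZFAS1 (61.5 ± 0.527), SNHG5 (59.5 ± 1.39) and SNHG19 (56.7 ± 4.78), had both WT values under those of the top 5. The WT values of SNHG5 and SNHG19 overlapped, whereas both ZFAS1 values lay above theirs.

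The label of strong promoters did not hold for the rows of 3 genes. SNHG18, the host of SNORD123, held 5.14 and 7.09 CPM in KO cells and 6.13 and 8.20 CPM in WT cells, and stood at the percentile 37.5. SNHG27, inside which no snoRNA is annotated, held 13 and 32 fragments in KO cells and 18 and 11 in WT cells, which is 1.54 ± 0.460 CPM in WT and below the lowest of the promoters of other cell types. SNHG14, the long imprinted host of the SNORD115 and SNORD116 clusters in the Prader-Willi region, held 9 and 10 fragments in KO cells and 4 and 10 in WT cells. SNHG14 did not pass the filter and was not tested. Its row was identical to that of SNRPN, the next gene in order. Other possible starts of SNHG14 and SNRPN were not examined, so the row does not describe every promoter of these genes.

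**Figure D1:**
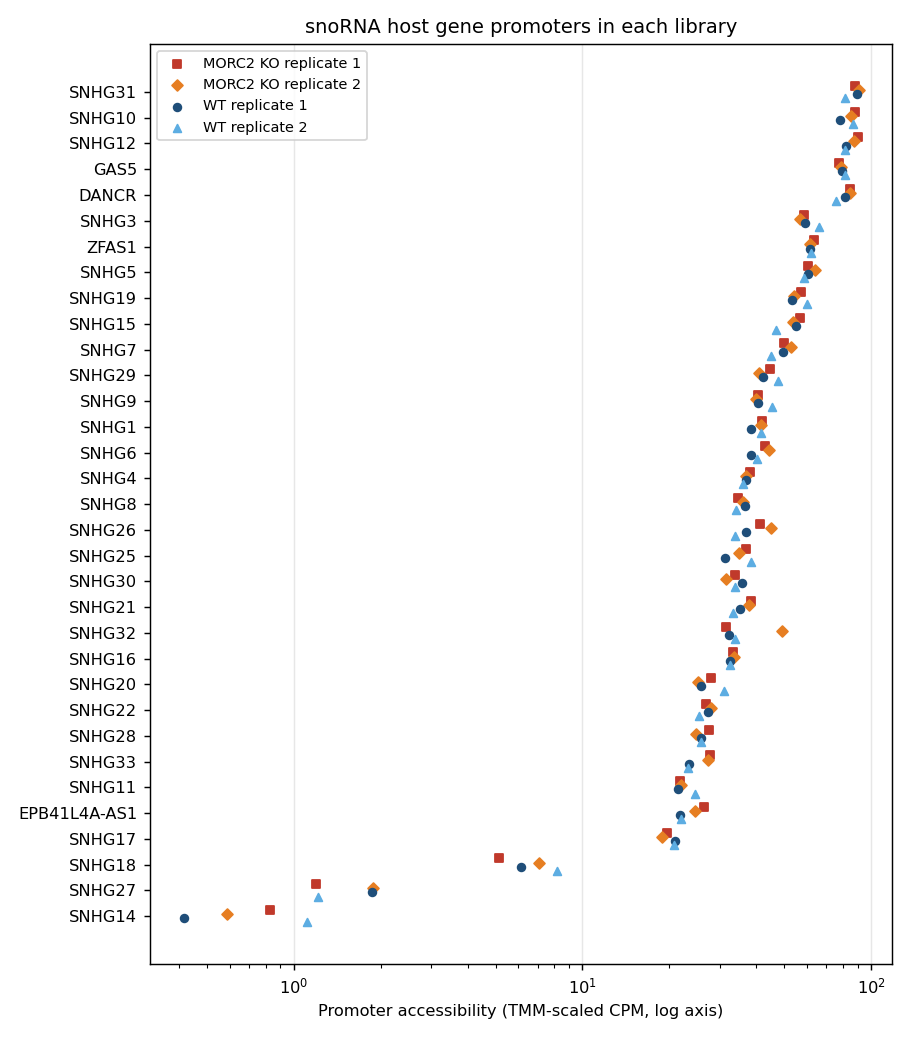
Promoter accessibility (TMM-scaled CPM, log axis) of the 33 snoRNA host genes in each of the 4 libraries, ordered by the WT mean. Most genes lie between 20 and 90 CPM with the 4 points close together, SNHG32 has 1 point (KO replicate 2) apart from the other 3, and SNHG18, SNHG27 and SNHG14 lie far to the left.

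Next, KO was compared with WT. In MORC2 KO cells 2 of the 32 tested host promoters, SNHG32 and SNHG26, were more accessible at an adjusted p under 0.05 in edgeR's quasi-likelihood test, and none was less accessible. Over all tested promoters 4.45% were called, 3.45% as more and 0.995% as less accessible, beside 6.25% of the hosts (2 of 32). The study summarised tests of small windows to promoters and reported far fewer differentially accessible genes in KO cells. These shares therefore belong to this fit, and why the numbers differ was not tested. DESeq2, which gave an adjusted p to 11 of the hosts, called none and put 1 under an unadjusted p of 0.05. Over all promoters it called only 6. At an unadjusted p under 0.05 there were 4 hosts (12.5%), all more accessible, against 20.3% of all promoters. The KO libraries were the upper pair at 11 hosts and the lower pair at 5, and the groups overlapped at 16. Groups that did not overlap therefore made up 50% of the hosts, against 50.6% of all promoters.

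The differences were small. The median log2 fold change (KO over WT) of the 32 hosts was 0.043, with quartiles of -0.045 and 0.11 and a range from -0.18 to 0.33, against -0.017 over all tested promoters and -0.088 over other long noncoding RNA promoters. It was above 0 at 22 hosts (68.8%), against 46.7% of all promoters, and 28 hosts lay within 0.2 of 0. With loess offsets, which remove any dependence of the fold change on abundance, the median of the hosts was -0.018 beside 0.001 for all promoters, so the sign of the median depends on the scaling. Of the 30 hosts that were not called, 28 had a 95% interval that included 0, and 28 had an interval inside ±0.5.

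**Figure D2:**
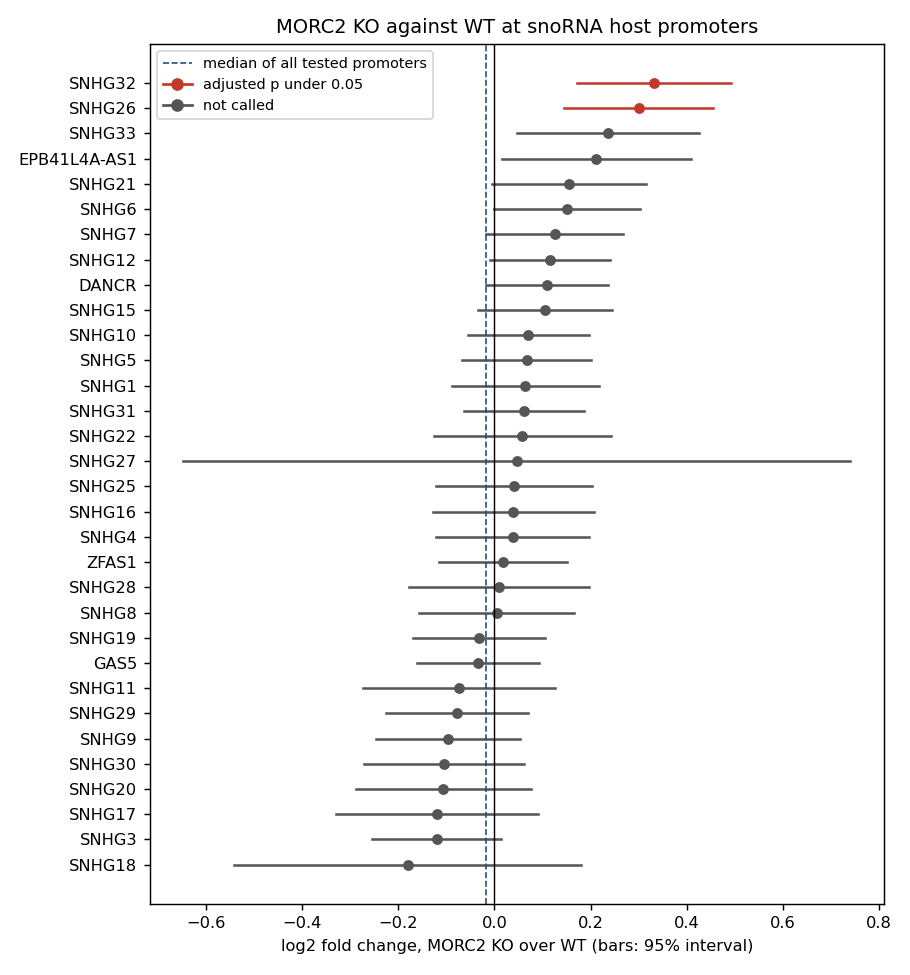
Log2 fold change (KO over WT) of the 32 tested host promoters with 95% intervals from the edgeR fit, 2 libraries per group; the dashed line is the median of all tested promoters. SNHG32 (0.33) and SNHG26 (0.30) are the called hosts, SNHG33 and EPB41L4A-AS1 are the others whose interval lies above 0, and SNHG27, the promoter with the fewest fragments among those tested, has the widest interval.

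**Figure D3:**
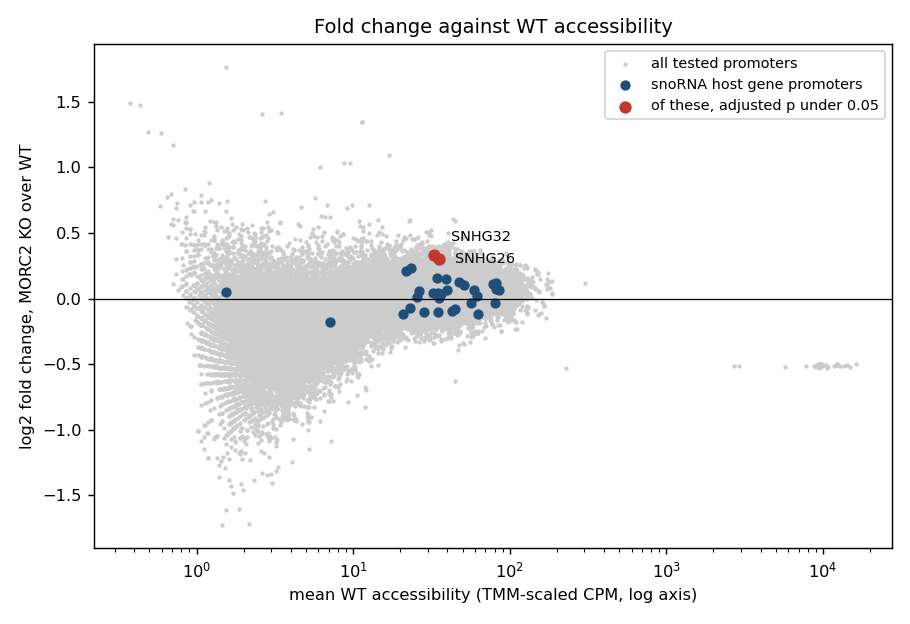
Log2 fold change (KO over WT) against the mean WT level (TMM-scaled CPM, log axis) for all 27647 tested promoters (grey) and the 32 hosts (blue, called ones red). All but 2 hosts, SNHG18 and SNHG27, lie at 20 CPM or more, to the right of the wide cloud of points at low levels.

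SNHG26 was the called host at which the groups did not overlap. KO cells gave 450 and 769 fragments and WT cells 354 and 305, which is 41.3 and 45.1 CPM against 36.8 and 33.8 CPM. Both KO libraries were above both WT libraries. Mean levels were 43.2 ± 2.70 CPM in KO and 35.3 ± 2.11 in WT (SD, n = 2 each), and the log2 fold change was 0.30 (SE 0.079, 95% interval 0.145 to 0.455, adjusted p = 0.0108). The call was lost, at log2 fold changes of 0.23 to 0.43, without KO replicate 2 (adjusted p = 0.393), without WT replicate 2 (0.186), with loess offsets (0.100) and with scaling to the total count (0.434). SNORD93, a box C/D snoRNA, lies inside SNHG26, and its own row held 202 and 328 fragments in KO cells and 142 and 130 in WT cells. The level of that row was 41.3% of the host's in WT cells and its log2 fold change was 0.38 (SE 0.117, adjusted p = 0.0357). If the rows overlap, as their position inside the host allows, this is not a separate observation. The promoter window of SNHG26 in the reference, shown whole because it is one of the called hosts, has a C and 3 pyrimidines at the annotated start (capitals) and no TATAA in the stretch searched.
SNHG26, chr7:22853990-22854289, plus strand: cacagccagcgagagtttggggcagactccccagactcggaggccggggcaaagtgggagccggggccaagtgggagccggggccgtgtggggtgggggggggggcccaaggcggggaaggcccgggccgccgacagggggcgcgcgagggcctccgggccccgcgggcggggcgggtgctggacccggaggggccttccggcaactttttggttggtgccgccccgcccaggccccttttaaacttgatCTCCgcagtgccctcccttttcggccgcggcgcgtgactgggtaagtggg

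SNHG32 rested on 1 library. This gene in the class III region of the major histocompatibility complex hosts the box C/D snoRNAs SNORD48 and SNORD52. KO cells gave 342 and 835 fragments and WT cells 311 and 305, which is 31.4 and 49.0 CPM against 32.3 and 33.8 CPM. KO replicate 1 was below both WT libraries and KO replicate 2 far above them, so the groups overlapped. The fitted log2 fold change was 0.33 (SE 0.082, 95% interval 0.17 to 0.49, adjusted p = 0.00573), and without KO replicate 2 it was -0.068 (adjusted p = 0.877). The call was also lost with the robust fit (adjusted p = 0.468), the edgeR 4 fit (0.0739), loess offsets (0.060) and scaling to the total count (0.412). The promoter window of SNHG32 is shown with the pyrimidine run at its annotated start in capitals.
SNHG32, chr6:31834666-31834965, plus strand: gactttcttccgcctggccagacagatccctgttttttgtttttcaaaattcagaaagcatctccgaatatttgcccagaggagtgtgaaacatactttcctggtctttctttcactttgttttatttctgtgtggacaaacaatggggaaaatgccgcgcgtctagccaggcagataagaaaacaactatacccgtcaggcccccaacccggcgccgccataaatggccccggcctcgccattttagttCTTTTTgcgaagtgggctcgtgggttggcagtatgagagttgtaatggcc

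The gap between the KO libraries at SNHG32 was rare and local. The level in KO replicate 2 was 1.56 times that in KO replicate 1. Over 12969 promoters with a mean KO level of at least 20 CPM the median of this ratio was 1.006, and only 2 of them, SNHG32 included, had a ratio at least as high. The 28 other hosts at that level had ratios from 0.900 to 1.093. SNORD48, inside SNHG32, had a ratio of 1.53, with 21.5 and 32.8 CPM in KO cells and 23.4 and 24.1 CPM in WT cells, and SNORD52, farther into the gene, had 1.16. The adjacent genes did not share it: HSPA1B, a heat shock protein gene, had a ratio of 0.982 and NEU1, a lysosomal sialidase gene, 1.004. What made the KO pools differ there was not tested.

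**Figure D4:**
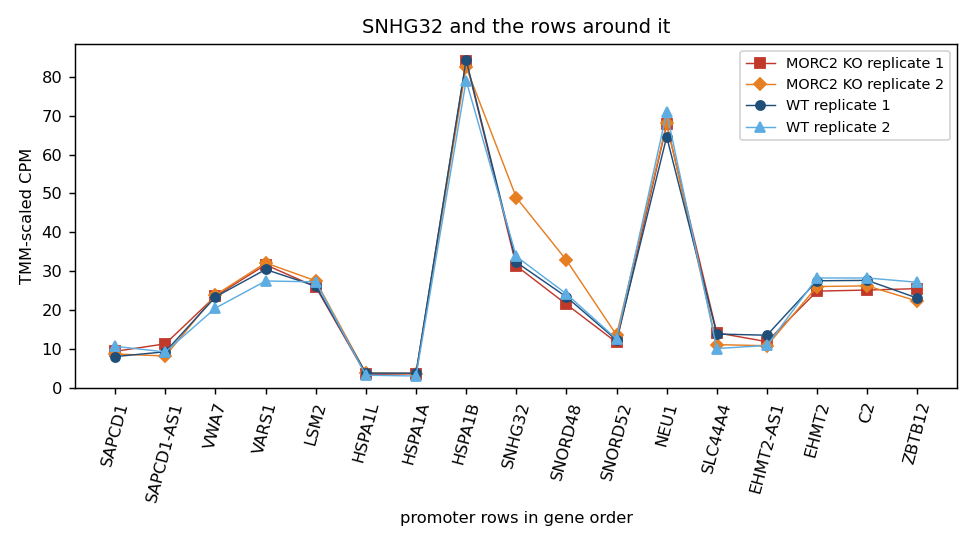
Promoter accessibility (TMM-scaled CPM) in the 4 libraries at SNHG32 and the 8 rows to either side of it in gene order; the x axis gives order and not distance. KO replicate 2 stands apart at SNHG32 (49.0 CPM) and SNORD48 (32.8 CPM) and lies among the other libraries at HSPA1B and NEU1.

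SNHG33 and EPB41L4A-AS1 had the next largest differences and were not called. SNHG33 held 27.7 and 27.3 CPM in KO cells and 23.4 and 23.3 CPM in WT cells, without overlap, a difference of 0.24 on the log2 scale (SE 0.096, adjusted p = 0.136). EPB41L4A-AS1, the host of SNORA13, held 26.3 and 24.5 CPM in KO cells and 21.7 and 21.9 CPM in WT cells, also without overlap, at 0.21 (SE 0.100, adjusted p = 0.203). EPB41L4A itself, the row before it in gene order and the gene it runs antisense to, was called, at 0.28 (SE 0.0824, adjusted p = 0.0288).

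The best-known hosts differed little. GAS5, named for its accumulation in growth-arrested cells, held 77.3 and 78.9 CPM in KO cells and 79.2 and 81.1 CPM in WT cells, a log2 fold change of -0.035 (95% interval -0.161 to 0.092, adjusted p = 0.797). ZFAS1, which starts opposite ZNFX1 and hosts 3 box C/D snoRNAs, held 63.5 and 61.4 CPM against 61.2 and 61.9 CPM, a log2 fold change of 0.018 (-0.116 to 0.151, adjusted p = 0.911). SNHG1, the host of 8 box C/D snoRNAs, held 41.7 and 41.7 CPM against 38.3 and 41.5 CPM, a log2 fold change of 0.064 (-0.087 to 0.216, adjusted p = 0.670). DANCR, named as an antagonist of differentiation and the host of SNORA26, held 84.7 and 84.5 CPM against 81.2 and 75.5 CPM, a log2 fold change of 0.11 (-0.017 to 0.236, adjusted p = 0.322). The libraries overlapped at ZFAS1, the KO libraries lay just below the WT libraries at GAS5, and they lay above them at SNHG1 and DANCR. No interval at these 4 promoters reached beyond 0.24 on the log2 scale in either direction.

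On the lower side no host passed the test. SNHG18 had the lowest log2 fold change, -0.18 (SE 0.184), with overlapping groups. SNHG3, the host of the SNORA73 genes, held 58.3 and 56.6 CPM in KO cells and 58.8 and 66.0 CPM in WT cells, at -0.12 on the log2 scale (SE 0.069, adjusted p = 0.306). SNHG17 held 19.6 and 18.9 CPM in KO cells and 20.9 and 20.8 CPM in WT cells, also -0.12 (SE 0.107, adjusted p = 0.547). At SNHG3 and SNHG17 both KO libraries were below both WT libraries by less than the interval of the difference.

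The hosts were also taken by what they carry. Only snoRNA genes lying wholly inside a host in the annotation were counted. SNORA50C, the row after SNHG25 in gene order, was thus not counted as its cargo. Box C/D snoRNAs alone are annotated in 13 hosts, box H/ACA snoRNAs alone in 12, both classes in 2 (GAS5 and SNHG12), small Cajal body RNAs in 4 (SNHG10, SNHG20, SNHG21 and SNHG22) and neither in 2 (SNHG27 and SNHG28). The median WT level was 35.3 CPM over the box C/D hosts, 39.7 over the box H/ACA hosts and 31.2 over the Cajal body RNA hosts. Their median log2 fold changes were 0.040, 0.050 and 0.064. The called hosts SNHG26 and SNHG32 both carry box C/D snoRNAs, and no difference between the classes was tested.

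The snoRNA genes have rows of their own in the table, and 31 of the 33 hosts contain at least 1 of them, 65 rows in the 30 hosts other than SNHG14. Of the 64 that were tested, SNORD93 was called as more accessible and none as less (1.56%, against 4.45% of all promoters), and their median log2 fold change was 0.020. Windows of snoRNAs close to the start of a host can hold the same fragments as the promoter of the host, and levels were lower farther along the gene. In GAS5, relative to its own WT level, SNORD74 stood at 93.2%, SNORD75 at 94.3%, SNORD76 at 88.5%, SNORD77 at 72.3% and SNORA103 at 64.9%. Farther along, SNORD44 stood at 33.4%, SNORD78 at 14.6%, and the last 4, SNORD79, SNORD80, SNORD47 and SNORD81, at 8.46% to 9.95%. In SNHG1, the 4 rows from SNORD25 to SNORD28 stood at 78.4% to 82.7%, SNORD29 at 34.1%, and SNORD30, SNORD31 and SNORD22 at 19.4% to 24.4%. SNHG12 went from 93.8% and 94.0% at SNORA16A and SNORA44 to 59.9% at SNORA61, with SNORD99 lower still, and ZFAS1 from 87.4% at SNORD12C to 56.0% at SNORD12B and 18.1% at SNORD12.

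**Figure D5:**
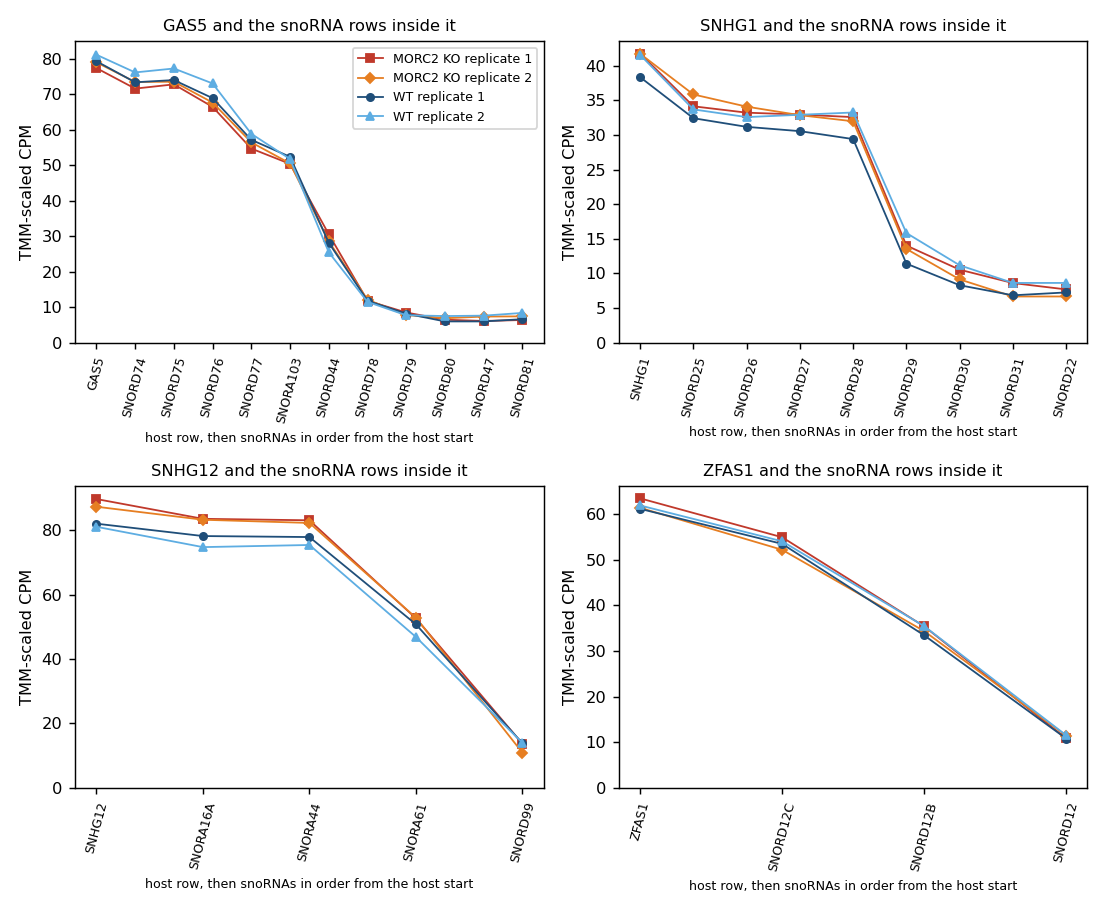
Accessibility (TMM-scaled CPM) of 4 host promoters and of the snoRNA rows inside them, in order from the start of the host, with 1 line per library. The 4 lines run together in each gene and fall from the host to its last snoRNA, to 9.40% of the WT level of the host in GAS5 and 18.1% in ZFAS1.

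A nested row reached at least 80% of the level of its host in 19 of the 30 hosts. Of the 16 hosts with 1 nested row, 9 were of this kind: SNORA24 stood at 96.1% of SNHG8, SNORD60 at 96.6% of SNHG19 and SNORA26 at 95.3% of DANCR. At the other end were SNORD87 at 16.4% of SNHG6, SNORD7 at 6.50% of SNHG30, SCARNA15 at 5.94% of SNHG21 and SNORA70I at 1.50% of SNHG31. Counts of rows from multicopy families, such as the SNORA71 genes in SNHG17 and SNHG11, can be split between near-identical copies and are uncertain.

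The hosts were also set beside their neighbours in gene order. Distances between starts were not computed, nor was the share of other promoters with so similar a neighbour. With nested rows set aside, 19 of the 33 hosts had a neighbour in gene order whose count differed by under 25% in every library, and 16 of these had a protein-coding one. The difference stayed under 5% at 10 hosts, among them SNHG1 with SLC3A2 (0.813%), an amino acid transporter subunit gene, SNHG10 with GLRX5 (1.15%), ZFAS1 with ZNFX1 (1.16%), GAS5 with ZBTB37 (1.42%) and SNHG3 with RCC1 (2.36%), the gene of a nucleotide exchange factor for Ran. SNHG4 and MATR3 had identical rows. Whether such pairs hold the same fragments was not tested, and for the identical rows the value of the host cannot be told apart from that of the neighbour. At the wider limit neighbours could differ from the host, as ERN1 did (-0.15 on the log2 scale) beside SNHG25 (0.040). SNHG26 and SNHG32 were among the 14 hosts without such a neighbour, but TOMM7, beside SNHG26, missed the limit narrowly at 25.4%, with a log2 fold change of 0.16 that was not called (adjusted p = 0.285). Of the 66 neighbouring rows 4 were called, all as more accessible, where 4.45% of all promoters were called and 3.45% as more accessible. They were EPB41L4A and NDST3, the latter beside SNHG8, GAS5-AS1 beside GAS5 (log2 fold change 0.45, adjusted p = 0.00121) and WDR74 beside SNHG1 (0.19, adjusted p = 0.048).

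The level and the fold change of the hosts were set beside their promoter letters. The 6 hosts with TATAA had a median WT level of 58.1 CPM and the 23 without it 33.0 CPM, and the 9 hosts with the pyrimidine start had 47.1 CPM against 33.3 CPM for the other 20. The median log2 fold change was 0.042 with and without TATAA, and 0.067 with and 0.039 without the pyrimidine start. These are descriptions over few genes and were not tested.

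Genes that act with the hosts were examined as 3 lists. Of 21 promoters of the proteins that build snoRNA particles, 2 were called as more accessible (9.52%, against 3.45% of all promoters) and none as less. DESeq2 gave an adjusted p to only 8 of the 21, so it could not call the others. GAR1, a core protein of box H/ACA particles, held 41.3 and 43.5 CPM in KO cells and 37.5 and 33.1 CPM in WT cells, at 0.27 on the log2 scale (SE 0.079, adjusted p = 0.0276). TGS1, which hypermethylates the cap of some small RNAs, held 68.4 and 70.4 CPM against 60.2 and 59.4 CPM, at 0.22 (SE 0.068, adjusted p = 0.037). Both KO libraries were above both WT libraries at each of them. NAF1, an assembly factor of box H/ACA particles, was next at 0.21 (adjusted p = 0.093) and was not called, and the median of the list was 0.037. Neither call was stable: TGS1 was lost whichever library was left out, GAR1 without KO replicate 2 or WT replicate 2, and both with the replicate block, loess offsets, the total count and DESeq2.

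No protein-coding snoRNA host was called. Of the 32 tested, 0% passed the adjusted threshold, against 4.45% of all promoters, and 5 (15.6%) had an unadjusted p under 0.05, against 20.3%. DESeq2, which gave an adjusted p to 20 of the 32, called none and gave 0 at an unadjusted p under 0.05. Their median log2 fold change was 0.033. The smallest p-values belonged to TNPO2, an importin gene, at -0.22 (adjusted p = 0.0931), SLC25A3, the mitochondrial phosphate carrier gene, at 0.17 (0.132), and EIF4G2, a translation factor gene, at 0.15 (0.184). Of 10 promoters of nonsense-mediated decay factors none was called, against 4.45% of all promoters, and 1 (10%) had an unadjusted p under 0.05, against 20.3%. DESeq2, which gave an adjusted p to only 3 of the 10, gave 0 by either measure. Their median was -0.014, and the smallest p-values belonged to the kinase gene SMG1 at -0.17 (adjusted p = 0.213), its partner SMG9 at -0.13 (0.403) and UPF2 at 0.10 (0.419).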

How the data were processed

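ATAC-seq was performed on HEK293T cells, with 2 MORC2 KO and 2 WT libraries grouped by their labels. Reads were trimmed with Trim Galore, aligned with bowtie2 to the gapless human assembly CHM13, filtered for mapping quality and cleared of duplicates with Picard by the authors. The deposited table holds raw fragment counts per promoter, identified by NCBI Gene ID and not normalised. The sources describe a 2 kb promoter window but not how this table was counted, although the submitters' processing notes list featureCounts (Subread 2.0.6). Symbols, gene order and containment of snoRNA genes came from RefSeq genes on GRCh38.p14, whose coordinates were not transferred to CHM13. The WT peak list, on CHM13, was not used here.

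Rows were filtered with filterByExpr (27647 kept), scaled by TMM and compared with edgeR 4.0.16 (R 4.3.3), legacy quasi-likelihood F-test, two-sided, without covariates. P-values were adjusted by Benjamini-Hochberg over all tested rows and called under 0.05. Scripts were tested on simulated data. Alternatives were DESeq2 size factors, total count, loess offsets, no filter, a replicate block, the Wald test of DESeq2 1.42.0, the robust and edgeR 4 fits, omission of mitochondrial rows and of each library in turn. Members and lists were chosen with earlier results of these data known. Values per library are given for the 4 hosts with own names, SNHG1, called hosts, and the 3 at either end of WT level and of fold change. Neighbours within 25%, nested snoRNAs, and called or smallest-p genes of each list are also named. The called neighbours, ERN1 and TOMM7 were named after their values were seen. Depth sets precision: with counts of 11 to 1544 fragments per library at the tested hosts, standard errors were 0.0636 to 0.354 (log2). The labels do not state separate cultures, although the study describes its WT replicates and its KO lines as independent. The p-values rest largely on a spread estimated over many promoters and do not measure the spread at a single promoter. At SNHG32 (SD 12.4 CPM in KO) the standard error was 0.0819, and at SNHG8 (SD 1.09 CPM in KO) it was 0.0824. With the robust fit SNHG32 had a standard error of 0.221.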

Additional observations from a re-analysis of the deposited data

How the results depend on the processing

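The 2 calls among the host promoters fell to 0 with scaling to the total count, 0 with loess offsets, 1 with the edgeR 4 fit, 1 with the robust fit and 0 with the DESeq2 Wald test, and ranged from 0 to 2 when 1 library was left out. DESeq2 gave an adjusted p to 11 of the 32 hosts, SNHG32 and SNHG26 not among them. Calls over all promoters, 1229 in the main fit, fell in most of these settings as well. They were 20 with the total count, 402 with loess offsets, 833 with the edgeR 4 fit and 6 with DESeq2. With the robust fit they were 1260. The 2 calls among the snoRNA particle genes fell to 0 with the total count, 0 with loess offsets, 0 with the replicate block, 1 with the edgeR 4 fit and 0 with DESeq2, and ranged from 0 to 2 when 1 library was left out. For protein-coding hosts the range was 0 to 1 (SLC25A3, without WT replicate 1). The median log2 fold change of the hosts, 0.043, moved to 0.18 with the total count and -0.018 with loess offsets, beside medians over all promoters of 0.12 and 0.001, and ranged from 0.036 to 0.063 when 1 library was left out. Their median WT percentile, 71.5, was 72.4 to 73.0 with 1 WT library. The sign turned for hosts that were not called: with the total count at GAS5 (0.098), SNHG3 (0.013) and SNHG17 (0.019), and with loess offsets at ZFAS1 (-0.058), SNHG31 (-0.022) and SNHG10 (-0.013). Leaving out 1 library gave -0.068 to 0.59 at SNHG32, -0.0034 to 0.14 at SNHG31, -0.00023 to 0.14 at SNHG10, -0.37 to 0.40 at SNHG27 and -0.47 to 0.042 at SNHG18. The cause of these changes was not tested. The deviations of same-numbered libraries correlated at 0.000297 over all tested rows, so no pairing by number was seen across the rows. This value cannot tell whether some rows share a step of preparation. With the replicate number as a block the hosts still gave 2 calls and a median of 0.040, while calls over all promoters went from 1229 to 765. Hosts with under 100 fragments in a library, SNHG18, SNHG27 and SNHG14, are too shallow to bound a change closely.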

Other observations

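The 83 snoRNA rows inside SNHG14, nearly all of the SNORD115 and SNORD116 families, were close to empty. They held 0 to 31 fragments per library, with a median WT level of 1.18 CPM and a highest of 2.34 CPM. Of 58 that passed the filter, 1 (1.72%, against 4.45% of all promoters) was called in edgeR's quasi-likelihood test, SNORD115-9, with 13 and 12 fragments in KO cells and 29 and 15 in WT cells (log2 fold change -1.38, SE 0.362, adjusted p = 0.0103). The median log2 fold change of the 58 was -0.48. These families are made of near-identical copies, so counts of single rows are uncertain, and the level lies near the bottom of the table.

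Among 376 tested snoRNA and small Cajal body RNA rows outside the hosts described above, 5 were called as more and 2 as less accessible (1.86%, against 4.45% of all promoters), with a median log2 fold change of -0.041. NDST3, a heparan sulfate sulfotransferase gene next to SNHG8, was called (log2 fold change 0.36, SE 0.0867, adjusted p = 0.00496), whereas SNHG8 itself was at 0.0044, although their counts differed by under 25% in every library. The difference between NDST3 and SNHG8 was not tested.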
